A study of Arabidopsis thaliana with 6 samples.

Results

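Transcript levels of 7 loci of early tetrapyrrole synthesis were examined in entire seedlings of Arabidopsis thaliana, genotype Columbia. The loci were HEMA1, HEMA2, GSA1, GSA2, HEMB1, HEMC and FLU, taken by their identifiers from the 32833 loci to which the deposited counts could be summed, and all 7 passed the filter on low counts together with 17880 other loci. Seedlings germinated for 3 d in darkness, either in air or with 0.7 ppm ethylene, and both groups then spent 5 d in light with no ethylene before RNA was taken. Each group had 3 libraries of messenger RNA. The labels do not say whether replicates were grown apart, so the p-values measure the spread between these libraries, which may be technical. In whole seedlings a change in the make-up of organs cannot be told apart from a change within cells.

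Tetrapyrroles are pigments and cofactors that include chlorophyll, haem, sirohaem and the bilin of phytochrome. In plants all of them come from aminolevulinic acid (ALA), which plastids make from glutamate bound to its transfer RNA. Glutamyl-tRNA reductase, encoded by the HEMA genes, forms glutamate semialdehyde, and the aminotransferase encoded by GSA1 and GSA2 turns it into ALA. HEMB1 encodes ALA dehydratase, which joins ALA molecules to porphobilinogen, and HEMC encodes porphobilinogen deaminase, which links porphobilinogen into a linear tetrapyrrole. The reductase step sets the flow into the pathway. FLU is a membrane protein of the plastid that binds the reductase and holds ALA synthesis back in darkness, when protochlorophyllide would otherwise build up.

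HEMA1 was 5.44-fold lower after ethylene, the largest difference among the 7 loci. HEMA2 and the counted form of FLU fell by much smaller amounts, GSA2 rose slightly, and GSA1, HEMB1 and HEMC did not pass the test. In all, 3 of 7 loci were called lower and 1 higher by the quasi-likelihood test of edgeR at an adjusted p under 0.05 (Benjamini-Hochberg, BH, over 17887 loci). Over all loci tested 32.6% were called, 16.8% lower and 15.8% higher, so the share of called loci among the 7 is not read as particular to them. In 3 loci all ethylene libraries lay below all air libraries, as in 23.8% of loci tested, and in 1 locus all lay above, as in 23.9%. Their median log2 fold change was -0.19, against 0.02 for all loci tested.

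Plant counts ranged from 12870604 to 17116359 per library, so that 1 count stood for 0.0584 to 0.0777 CPM, the count divided by library size and given per 1e6 counts. The levels below are CPM scaled by the trimmed mean of M-values (TMM) and state each locus as a part of the messenger RNA pool. The 92 synthetic spike-in RNAs made up 1.98%, 2.23% and 2.03% of all counts in air replicates 1 to 3. In ethylene replicates 1 to 3 they made up 1.51%, 1.66% and 1.98%, so the groups were not separated. When libraries were scaled on these RNAs instead, the median over all tested loci went from 0.02 to 0.47 (log2), with 40% of loci then called higher and 4.63% lower. Under that scaling HEMA1 was still called lower and GSA2 higher, HEMA2 and FLU were not called, and GSA1, HEMB1 and HEMC had positive changes that did not pass the test. Green leaf and root marker transcripts were both present in every library. Of 4 green leaf markers, CAB1, an antenna protein gene, fell by 0.65 ± 0.07 on the log2 scale (not called with spike-in scaling), where 16.8% of all loci tested fell. The other 3, each with several transcripts in the files, were not called. The summed level of the 4 was 36465 to 39117 CPM in air and 25636 to 27206 CPM after ethylene. Most of that sum was CAB1, with means of 27686 CPM in air and 17638 CPM after ethylene. Of 8 root markers, 7 were tested and 4 rose (TIP2;3, PHO1, PHT1;1 and RHD6, by 1.03 to 1.56 on the log2 scale), where 15.8% of all loci tested rose. SCR, also tested, had -0.18 ± 0.10 and was not called. Without air replicate 2, where the filter on low counts was applied anew, 7 of the 8 listed were called higher. The summed level of the 8 root markers was 192 to 286 CPM in air and 393 to 514 CPM after ethylene. Of 6 seed storage genes, 2 were tested and both rose, where 15.8% of all loci tested rose. The call of SESA2 was lost with DESeq2 (adjusted p = 0.216) and without any 1 ethylene replicate (edgeR adjusted p 0.0577 to 0.0741). Air replicate 3 held 1 count each of SESA2 and SESA5. Air replicates 1 and 2 held 92 and 64 counts of SESA2, and 19 and 23 of SESA5. Without air replicate 3 both were still called higher, by 1.49 for SESA2 and 2.86 for SESA5 (log2), against 2.07 and 3.41 with all libraries. The summed level of the 6 seed storage genes was 0.152 to 7.66 CPM in air and 21.3 to 33.8 CPM after ethylene. The part of these differences in the results below was not tested.

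The upstream sequences of HEMA1 and HEMA2 are shown because both reductase genes were called lower while differing in the size of the fall. They are the 250 bases before the annotated start of each gene in RefSeq assembly TAIR10.1, both on the minus strand, at chr1:21626403-21626652 for HEMA1 and chr1:3239555-3239804 for HEMA2, written 5′ to 3′. The counts name no build, but 99.2% of their 53688 transcript identifiers with an isoform number are in the annotation of that assembly. Capitals mark matches to the CCA1 site AAAAATCT, a motif bound by clock proteins, on either strand.
HEMA1: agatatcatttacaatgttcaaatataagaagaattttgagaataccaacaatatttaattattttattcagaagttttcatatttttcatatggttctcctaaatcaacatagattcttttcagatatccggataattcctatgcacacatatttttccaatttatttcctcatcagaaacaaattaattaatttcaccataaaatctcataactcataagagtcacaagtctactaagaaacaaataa
HEMA2: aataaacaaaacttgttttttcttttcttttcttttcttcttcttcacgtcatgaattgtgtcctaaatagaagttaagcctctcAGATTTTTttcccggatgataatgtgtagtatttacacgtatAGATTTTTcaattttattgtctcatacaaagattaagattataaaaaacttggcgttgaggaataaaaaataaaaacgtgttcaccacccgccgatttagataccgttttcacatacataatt
HEMA2 held 2 matches to the CCA1 site, the window of FLU held 1, 191 to 184 bases before its start, and those of HEMA1 and the other loci held none, against 6.69% of the windows of 27443 protein-coding genes with at least 1 match. The G-box CACGTG (6.49% of windows), the evening element AAAATATCT (2.36%), the I-box GATAAG (12.3%) and the site CACGCGC of the regulators FHY3 and FAR1 (1.06%), searched on both strands, were in none of the 7 windows. None of these motifs lies within another. A match is a run of letters and not a measured binding site.

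HEMA1 (AT1G58290, chr1:21623700-21626402, minus strand, 3 exons, 2311 bases of transcript) encodes the glutamyl-tRNA reductase that prevails in green tissue and is induced by light. Its level was 915, 797 and 1076 CPM in air replicates 1 to 3 and 185, 169 and 159.5 CPM in ethylene replicates 1 to 3. Every ethylene library lay far below every air library. The air libraries varied more among themselves, with an SD of 0.22 in log2 CPM against 0.11 after ethylene. The means were 929.6 ± 139.9 and 171 ± 12.7 CPM (SD, n = 3 each), a 5.44-fold difference with a 95% interval from 4.55 to 6.51. The log2 fold change was -2.44 ± 0.12 (SE), and edgeR gave an adjusted p of 6.45e-06 (BH). It ranked 3 of 17887 loci by p and 95 by the size of the fall, and 0.531% of loci had a log2 fold change as low. By mean CPM it moved from rank 116 of 32833 loci in air to rank 1071 after ethylene. Those ranks use CPM not divided by transcript length. How reads were divided in loci with several transcripts may bear on the ranks and was not tested. Spike-in scaling gave -1.98 ± 0.19, and leaving out 1 library at a time gave -2.57 to -2.34.

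HEMA2 (AT1G09940, chr1:3236908-3239554, minus strand, 3 exons, 2201 bases) encodes a second reductase, known from roots and other non-green organs and not strongly induced by light. It had 47.9, 51.7 and 54.4 CPM in the air libraries and 28.9, 35.0 and 29.3 CPM in the ethylene libraries. The groups did not overlap, as in 47.7% of all loci tested. HEMA2 fell by 0.72 ± 0.11 on the log2 scale (edgeR adjusted p = 0.00074 with BH), a 1.65-fold difference, from 51.3 ± 3.22 to 31.1 ± 3.42 CPM (SD, n = 3 each). Of the 7 root markers tested in the same libraries, 4 were called higher and 3 were not called, with log2 fold changes from -0.18 to 1.56. The part of organ make-up in the HEMA2 fall was not tested. Spike-in scaling gave -0.26 (adjusted p = 0.259 with BH), and the groups overlapped. No stretch of 50 bases was shared between the HEMA1 and HEMA2 transcripts, so a read of that length or more that matches one exactly cannot match the other.

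GSA2 (AT3G48730, chr3:18049571-18051778, plus strand) and GSA1 (AT5G63570, chr5:25451800-25453845, plus strand) encode the aminotransferase that makes ALA. GSA2 had 397, 382 and 379.9 CPM in air and 465, 440.4 and 438 CPM after ethylene. All ethylene libraries were above all air libraries, by a small margin. GSA2 rose by 0.21 ± 0.07 on the log2 scale (edgeR adjusted p = 0.0408 with BH), a 1.16-fold rise, from 386 ± 9.10 to 448 ± 14.8 CPM (SD, n = 3 each). That call was lost with DESeq2 (adjusted p = 0.0628 with BH) and whenever any 1 of the 6 libraries was left out (edgeR adjusted p 0.0708 to 0.120), while with spike-in scaling the rise was 0.67 ± 0.18 (adjusted p = 0.00151). GSA1 was counted far less, at 4.0, 3.69 and 4.27 CPM in air and 3.36, 4.98 and 3.38 CPM after ethylene. Its groups overlapped, and the 95% interval of its log2 fold change ran from -0.56 to 0.50, so falls of up to 1.47-fold lie within it. GSA1 and GSA2 shared no stretch of 50 bases.

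HEMC (AT5G08280, chr5:2663499-2665826, minus strand, 5 exons, 1643 bases) had between 6476 and 8761 counts per library. Its level was 554, 531 and 601 CPM in air and 553, 501 and 486 CPM after ethylene. The groups overlapped, with means of 562 ± 35.6 and 513 ± 35.2 CPM (SD, n = 3 each). The log2 fold change was -0.13 with a 95% interval from -0.31 to 0.05 (edgeR adjusted p = 0.259 with BH). Of its exon bases, 7.85% lie on AT5G08270 and 2.80% on AT5G01545, both on the opposite strand, and without a statement on strand reads from these stretches cannot be assigned. HEMB1 (AT1G69740, chr1:26231620-26235043, plus strand) had 9.04, 7.37 and 9.00 CPM in air and 5.74, 9.25 and 7.21 CPM after ethylene. Its groups overlapped, and the 95% interval of its log2 fold change ran from -0.65 to 0.26. It rested on 89 to 158 counts per library.

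**Figure D1:**
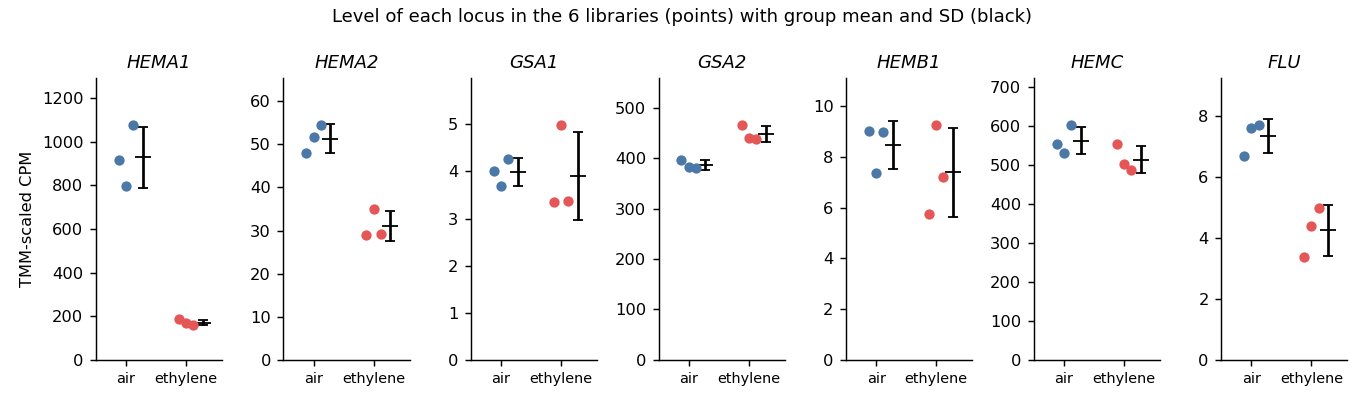
TMM-scaled CPM of each of the 7 loci (vertical axis, linear from 0, a separate scale for each locus) in the 3 air libraries (blue points) and 3 ethylene libraries (red points), with the mean and SD of each group in black. HEMA1 drops from between 797 and 1076 to between 159.5 and 185 CPM, HEMA2 and FLU are lower without overlap, and GSA1, HEMB1 and HEMC overlap between groups.

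**Figure D2:**
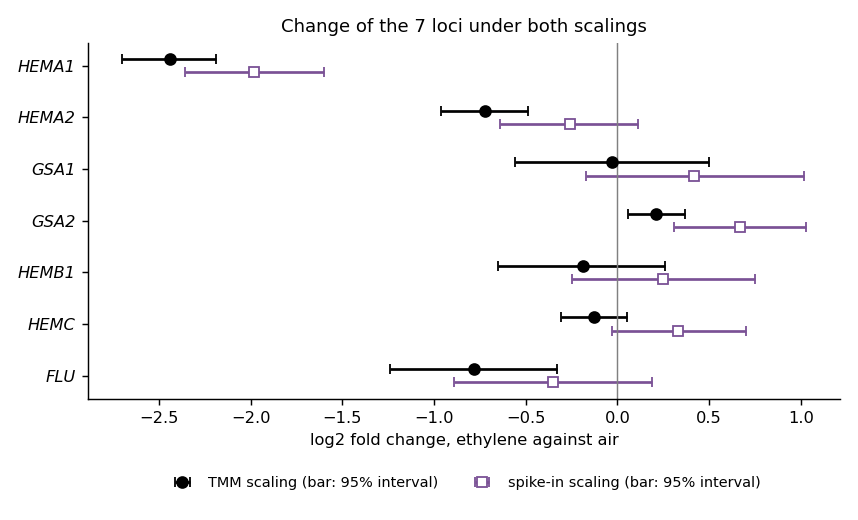
Log2 fold change of ethylene against air for the 7 loci (horizontal axis) with its 95% interval, under TMM scaling (black circles) and spike-in scaling (open squares). Spike-in scaling shifts all loci to the right, and the interval of HEMA1 stays below 0 under both scalings, at -2.44 and -1.98.

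FLU (AT3G14110, chr3:4676118-4677689, minus strand) had 6.69, 7.62 and 7.70 CPM in air and 3.36, 4.39 and 4.99 CPM after ethylene. Every ethylene library was below every air library. The log2 fold change was -0.78 ± 0.21 (edgeR adjusted p = 0.0156 with BH), a 1.72-fold fall with a 95% interval from 1.25 to 2.36, from 7.34 ± 0.560 to 4.25 ± 0.826 CPM (SD, n = 3 each). It rested on 291 counts in air and 217 after ethylene, from libraries of unequal size, and 3.53% of its exon bases lie on AT3G14100 on the opposite strand. Spike-in scaling gave -0.35 (adjusted p = 0.297 with BH), although the groups still did not overlap.

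The FLU counts came almost wholly from 1 annotated transcript that keeps an intron. Of the 3 FLU transcripts, AT3G14110.2 held 497 counts over the 6 libraries, AT3G14110.3 held 11 and AT3G14110.1 held 0. AT3G14110.2 keeps the intron at chr3:4677002-4677132 (TAIR10.1, minus strand, 131 bases), which AT3G14110.1 removes between 2 coding exons. This intron supplied the 128 bases of AT3G14110.2 that were in no other FLU transcript, whereas AT3G14110.1 had 0 such bases. Both ends of the intron are shown to place the sequence on which the FLU counts turn. Each line has 15 bases on either side of the boundary, 5′ to 3′ on the minus strand, with the first or last 2 intron bases in capitals.
FLU exon to intron: ttttcagcttttgagGTagtttggtgatga
FLU intron to exon: atatggatgtggcAGggaattgggaggctc
The exon to intron boundary is at chr3:4677118-4677147 and the intron to exon boundary at chr3:4676987-4677016. The fall printed for FLU therefore describes reads assigned to the form that keeps the intron. With 11 counts on AT3G14110.3 and 0 on AT3G14110.1, the level of spliced FLU messenger RNA cannot be read from these tables.

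In the other 2 loci with several transcripts most counts also lay on a transcript that keeps an intron, wholly in HEMB1 and less so in GSA1. For HEMB1, AT1G69740.3 held all 716 counts and the other 2 transcripts held 0. Only AT1G69740.3 keeps a stretch of 114 bases, upstream of the coding start, that AT1G69740.2 removes as an intron. For GSA1, AT5G63570.2, which keeps a 153-base intron of AT5G63570.1, held 270 counts and AT5G63570.1 held 87. The share of AT5G63570.2 was 87.9%, 68.9% and 66.1% in air and 78.8%, 81.2% and 67.2% after ethylene, with overlap between groups (exact two-sided permutation test, p = 0.9, where the smallest p for 3 against 3 is 0.1). The share of AT3G14110.2 in FLU was 96.9% to 99.0% in air and 96.0% to 100% after ethylene. The 4 loci with 1 transcript (HEMA1, HEMA2, GSA2 and HEMC) had from 3614 to 48261 counts, against 357 to 716 for the other 3. Levels of GSA1, HEMB1 and FLU are therefore not ranked against those of other loci, and a ratio to one of them describes the reads assigned to its counted transcripts. How reads shared by transcripts were counted is not given in the sources used, and the part of the counting in this split was not tested.

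**Figure D3:**
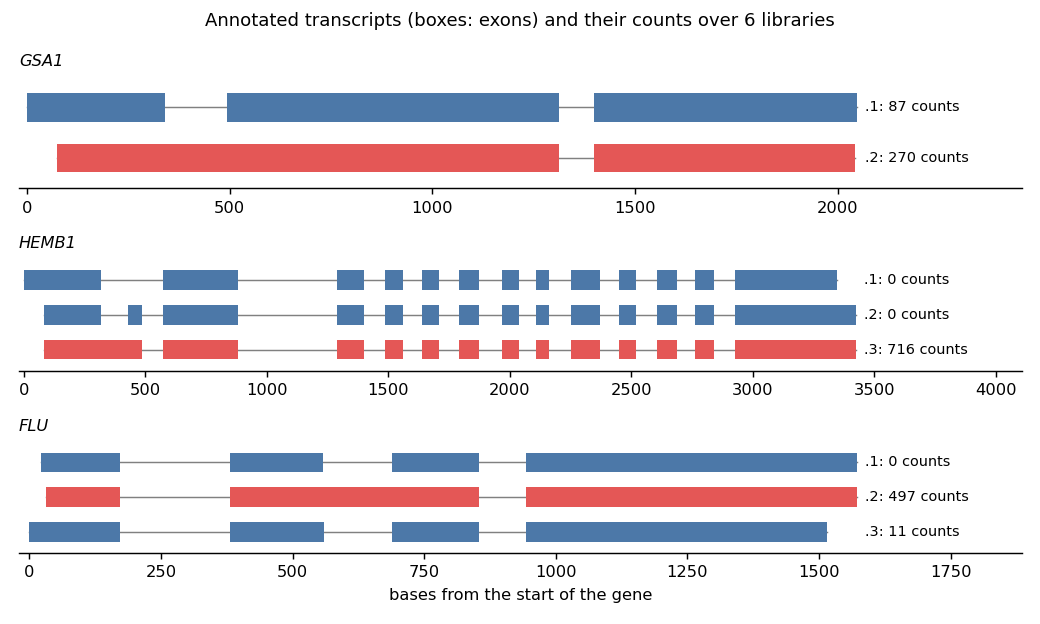
Exons (boxes) of the annotated transcripts of GSA1, HEMB1 and FLU along the gene (horizontal axis, bases from the start of the gene), with the counts of each transcript over the 6 libraries at the right, in red where the transcript held at least 100 counts. In each locus the transcript with most counts, 270, 716 and 497, is the one that keeps an intron.

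Among the 4 loci with 1 transcript, levels can be set side by side per kilobase of transcript. In air the mean TMM-scaled CPM per kilobase was 402 ± 60.5 for HEMA1, 342 ± 21.7 for HEMC, 218 ± 5.13 for GSA2 and 23.3 ± 1.46 for HEMA2 (SD, n = 3 each). HEMA1 and HEMC overlapped in air, at 345 to 466 and 323 to 366. After ethylene HEMC came first at 312 ± 21.4, then GSA2 at 252 ± 8.37, HEMA1 at 74.0 ± 5.51 and HEMA2 at 14.1 ± 1.55. HEMA1 thus went from the top of this order to the third place, below GSA2 in all 3 ethylene libraries.

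Dividing HEMA1 by another locus within the same library removes the scaling between libraries. HEMA1 had 19.1, 15.4 and 19.8 counts per count of HEMA2 in air and 6.39, 4.81 and 5.44 after ethylene. The reductase transcripts thus remained mostly HEMA1 in both groups, with a smaller excess after ethylene. This ratio fell by 1.71 on the log2 scale, from 4.17 ± 0.19 to 2.46 ± 0.20 (SD, n = 3 each). Against GSA2 the ratio was 2.31, 2.09 and 2.83 in air and 0.397, 0.383 and 0.364 after ethylene, and it fell by 2.65. Against HEMC it was 1.65, 1.5 and 1.79 in air and 0.334, 0.336 and 0.329 after ethylene, and it fell by 2.30. The order of HEMA1 and HEMC counts was thus turned in every library. The ratios to GSA1, HEMB1 and FLU fell by 2.38, 2.22 and 1.63. In all 6 ratios the groups did not overlap, and each had an exact two-sided permutation p of 0.1 (adjusted p = 0.1 over the 6 ratios), the smallest that 3 against 3 libraries allow, so this test cannot pass 0.05. Since all 6 ratios share the HEMA1 counts, they are not independent.

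**Figure D4:**
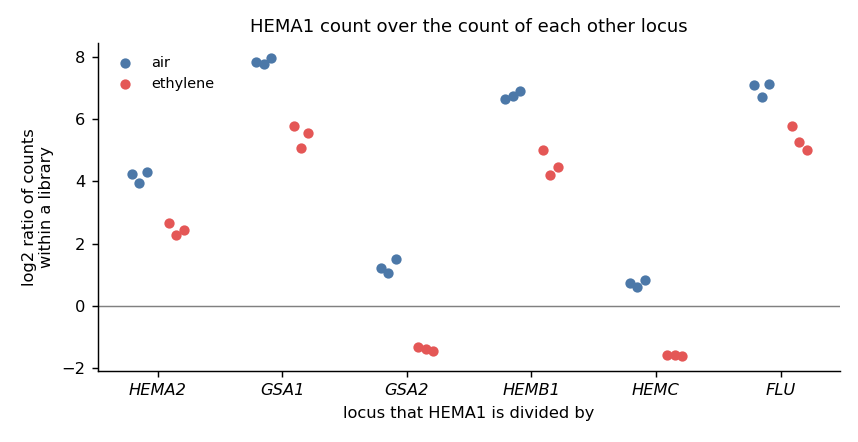
Log2 of the HEMA1 count divided by the count of each other locus in the same library (vertical axis), for 3 air libraries (blue) and 3 ethylene libraries (red). The ratio is lower in every ethylene library for all 6 loci, and it crosses 0 (equal counts) for GSA2 and HEMC.

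Of 10 further loci of the common steps, 9 were tested, 1 rose, 1 fell and 7 were not called, where 15.8% of all loci tested rose and 16.8% fell. Their log2 fold changes ran from -0.40 to 1.02, with a median of -0.09. Scaled on the spike-in RNAs, 4 were called higher and 0 lower, where 40% and 4.63% of all loci tested were. Of the 55 tested loci of all 8 lists, markers included, 28 have several transcripts in the files, so that how reads were divided among transcripts may bear on them as on FLU. Among those named they are HEMF2, GUN5, PORC, HO1, PIF5, GLK1, GLK2, HY5 and FHY3. HEME2, a uroporphyrinogen decarboxylase gene, fell by 0.35 ± 0.08 on the log2 scale, from 411 ± 22.2 to 322 ± 12.8 CPM, against a change of 0.11 under spike-in scaling. HEMF2, annotated as a second coproporphyrinogen oxidase gene, rose by 0.87 ± 0.21, from 4.18 ± 0.968 to 7.65 ± 0.700 CPM. HEMF1, the abundant coproporphyrinogen oxidase gene, was at 368 ± 8.83 CPM in air and 397 ± 8.07 CPM after ethylene and was not called, though with spike-in scaling it was called higher, by 0.56 (adjusted p = 0.00778 with BH). The gene of glutamyl-tRNA synthetase, which charges the transfer RNA used by the reductase, had a log2 fold change of -0.09 ± 0.08.

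In the magnesium branch, which leads to chlorophyll, 12 of 13 loci were tested, 6 fell (3 without air replicate 3 or without ethylene replicate 3), 1 rose and 5 were not called, with a median log2 fold change of -0.35 against 0.02 for all loci tested, of which 16.8% were called lower and 15.8% higher. GUN5, the large subunit of magnesium chelatase, fell by 0.78 ± 0.09, from 364 ± 43.0 to 213 ± 3.91 CPM. CHLG, chlorophyll synthase, and CHLI1, a chelatase subunit, fell by 0.36 ± 0.08 and 0.34 ± 0.08, and PORC, a light-dependent protochlorophyllide reductase, rose by 0.57 ± 0.11. With spike-in scaling this branch had 0 loci lower and 3 higher, where 4.63% and 40% of all loci tested were, with CHLG at 0.10 and CHLI1 at 0.12. In the haem, bilin and sirohaem branches 7 of 9 loci were tested, 1 fell and 6 were not called, where 16.8% of all loci tested were called lower. Scaled on the spike-in RNAs, 1 was called higher and 0 lower, where 40% and 4.63% of all loci tested were. All 7 tested loci of these branches have several transcripts in the files. HO1, the haem oxygenase that starts the phytochrome bilin, fell by 0.30 ± 0.10 (edgeR adjusted p = 0.043 with BH), with 0.16 under spike-in scaling, and its call was lost without air replicate 1 or 3 or ethylene replicate 2 or 3 (adjusted p 0.0743 to 0.140) and with upper-quartile factors (0.0547).

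Genes of proteins that act on the reductase other than FLU were also lower in part. Of 4 such loci 3 were tested and 2 fell, where 16.8% of all loci tested were called lower. CLPC1, a chaperone of the plastid Clp protease that takes part in reductase breakdown, fell by 0.52 ± 0.09, from 4037 ± 429.9 to 2815 ± 149 CPM, and by spike-in scaling it had -0.06 and was not called. CPSRP43, a chaperone of antenna proteins that also keeps the reductase stable, fell by 0.43 ± 0.08, against a change of 0.03 under spike-in scaling. GBP, which holds the reductase at the membrane, was at 187 ± 11.6 CPM in air and 163 ± 6.77 CPM after ethylene and was not called.

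Of 14 regulators of greening 11 were tested, 4 fell (2 without air replicate 1 or without ethylene replicate 2) and 7 were not called, against 16.8% lower among all loci tested, and their median log2 fold change was -0.30. EIN3, a central transcription factor of ethylene signalling, fell by 0.57 ± 0.08, from 280.2 ± 15.6 to 189 ± 9.18 CPM, and its relative EIL1 fell by 0.30 ± 0.08. PIF5, a phytochrome-interacting factor, fell by 0.75 ± 0.21 and GNC, a GATA factor, by 0.30 ± 0.09. All 4 calls were lost under spike-in scaling, where EIL1 and GNC had 0.16 and 0.14. That of PIF5 was also lost without air replicate 1 or 2 or ethylene replicate 2 or 3 (edgeR adjusted p 0.0509 to 0.0753 with BH). That of GNC was lost without air replicate 1 or 3 or ethylene replicate 1 or 2 (0.0571 to 0.0802). GLK1 and GLK2, activators of chlorophyll synthesis genes, had log2 fold changes of 0.19 ± 0.26 and -0.18 ± 0.25. HY5, a light-signalling factor, was at 0.959 ± 0.437 and 1.95 ± 0.284 CPM and was not called, but with spike-in scaling it was called higher, by 1.43 (adjusted p = 0.00571 with BH). It was 1 of 2 regulators then called higher, where 40% of all loci tested were. The other was CGA1, a relative of GNC, by 0.72. FHY3 had a log2 fold change of -0.34 ± 0.19, FAR1 had 5 to 14 counts per library and was not tested, and PIF3, with 6 transcripts in the files, had 0 counts in all 6 libraries.

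**Figure D5:**
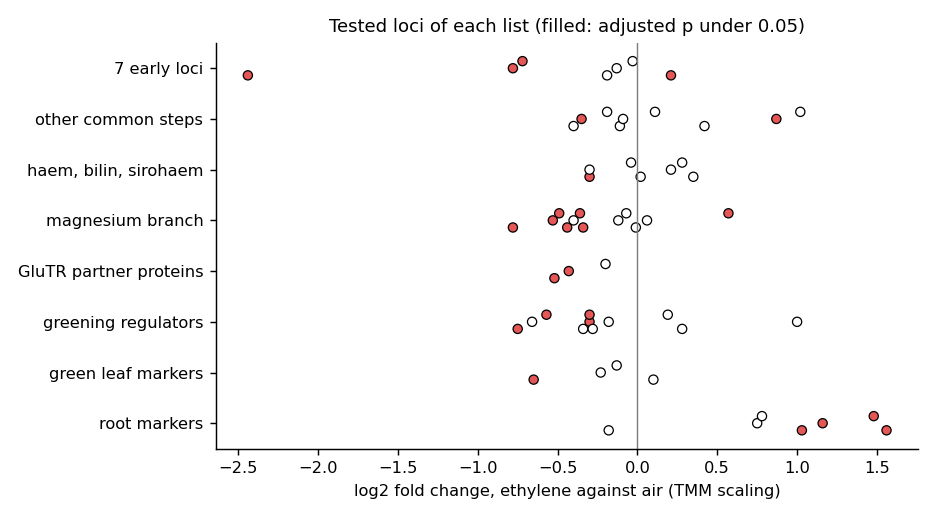
Log2 fold change of ethylene against air under TMM scaling (horizontal axis) for each tested locus of the 7 early loci, of 5 further lists and of 2 marker lists (rows), filled where the adjusted p was under 0.05 and open otherwise. HEMA1 at -2.44 lies left of all other loci shown, and 4 of 7 root markers are called to the right.

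Loci whose profile over the 6 libraries was most like that of HEMA1 were sought among 11151 loci with a mean of at least 5 CPM. Likeness was the root-mean-square difference between log2 CPM profiles, each centred on its own mean, so that a low value means alike in both direction and size. The nearest was FER1, a gene of the iron-storage protein ferritin, at 0.0996, which went from 267 ± 62.8 to 49.5 ± 4.21 CPM. AT3G23170 followed at 0.113, then SWEET2, a sugar transporter gene, at 0.123, and AT3G50560 and ENH1, both at 0.129. Their log2 fold changes were -2.43, -2.36, -2.30, -2.33 and -2.22 in that order. Nearest to FLU were AT5G66240 at 0.0630 and AT1G33600 at 0.0633, with log2 fold changes of -0.69 and -0.68, followed by PI4K GAMMA 1, ATCG01020 and WIH2 at 0.0707, 0.0719 and 0.0783. None of the other early loci was among the 5 nearest to either gene, but GSA1, with a mean below 5 CPM, was not searched. Since the measure counts the size of a change, the other early loci, with much smaller changes, could not lie near HEMA1.

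The authors' deposited table, which compares transcripts and not loci, gave log2 fold changes of -2.44 for HEMA1 (authors' adjusted p = 7.42e-78), -0.72 for HEMA2 (1.18e-06) and -0.80 for AT3G14110.2 of FLU (0.00817). In the authors' deposited table, GSA2 had 0.21 with an adjusted p of 0.0593, above 0.05. HEMC, AT1G69740.3 of HEMB1 and both GSA1 transcripts had adjusted p-values from 0.383 to 0.987 in the authors' deposited table.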

How the data were processed

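The authors deposited 1 table of raw read counts per transcript for each of the 6 libraries, and a table of ethylene against air that holds a log2 fold change, a p-value and its adjusted p-value for each transcript, per the file headers. Trizol extraction, mRNA enrichment and randomly primed cDNA are given in the labels' protocols. The aligner, counter, strand setting, annotation and build are not given in the sources used. A further 12 per-sample columns in the comparison tables were not used.

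Counts were summed over 54013 plant transcript identifiers to 32833 loci. The 92 spike-in RNAs entered neither library sizes nor tests. Total counts ranged from 13163499 to 17462603. The test was edgeR 4.0.16 (R 4.3.3), quasi-likelihood, TMM factors, filterByExpr (minimum count 10, minimum total 15), group alone as the design, BH adjustment over all loci. SE is the log2 fold change over the square root of F. Alternatives were DESeq2 1.42.0, other scalings and filters, a replicate block, the most abundant transcript of each locus, and leaving out each library. The fit was tested on simulated counts. Replicates of a group differed by more than sampling noise (chi-square per degree of freedom 5.34 to 29.0). Structures and sequences came from RefSeq TAIR10.1.

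The loci and the 8 lists with 68 loci were chosen with earlier results of these data known. In each list the text names up to 4 called loci with the smallest p and the locus with the highest mean CPM. Glutamyl-tRNA synthetase, GBP, GLK1, GLK2, HY5, FHY3, FAR1 and PIF3 were named for their roles after their values were seen. SCR, CGA1, HEMA3, HEMB2, HO3, HO4 and PORA are also named outside that rule.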

Additional observations from a re-analysis of the deposited data

How the results depend on the processing

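HEMA1 was called lower under all 13 alternatives, with log2 fold changes from -2.57 to -1.98. HEMA2 and FLU were called lower under all but spike-in scaling, where they had -0.26 and -0.35, so that 1 of the 7 loci was then lower in place of 3, and 829 loci in place of 3007, with 7160 higher in place of 2828. Spike-in scaling also turned GSA1 to 0.42, HEMB1 to 0.25 and HEMC to 0.33, none of them called, and HEME2 (0.11), HO1 (0.16), CHLG (0.10), CHLI1 (0.12), CPSRP43 (0.03), EIL1 (0.16) and GNC (0.14), whose calls were lost. The GSA2 call was lost with DESeq2, with no filter on low counts and with a replicate block (0.21 in each), leaving 0 loci higher, and in each of the 6 fits without 1 library (0.18 to 0.22, with 0 loci higher in each). The change of GSA1, never called, was 0.01 on its most abundant transcript and -0.24 to 0.06 without 1 library. Without 1 library all ratios of HEMA1 stayed lower, at -2.74 to -1.46, 2383 to 3058 loci were lower and 1978 to 2845 higher, and 3 of the 7 loci were lower each time. The difference in the share of AT5G63570.2 in GSA1 was -2.66 to 8.27 percentage points, and that of AT3G14110.2 in FLU -1.95 to 0.05. Same-numbered libraries did not deviate together (correlations 0.02, -0.06 and 0.12), so the numbers were not taken as pairs, and the replicate block moved the counts of calls to 2807 lower and 2767 higher, with HO1 not called (adjusted p = 0.0608). GSA1 fell under the filter at a mean CPM of 5. The cause of these shifts was not tested beyond the scaling itself. GSA1, HEMB1 and FLU rested on few counts, 45 to 158 per library. The part of depth and of the counting of shared reads in these low counts was not tested.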

Other observations

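Some relatives of the early loci had few counts. HEMA3, the least counted reductase gene, had 2 to 34 counts per library, with 0.907 ± 0.720 CPM in air and 1.87 ± 0.125 CPM after ethylene (SD, n = 3 each), and was not called by edgeR (adjusted p = 0.179 with BH), but was called higher with spike-in scaling, by 1.46 on the log2 scale (adjusted p = 0.00645 with BH). HEMB2, a relative of HEMB1, had 0 to 12 counts per library and was not tested. The haem oxygenase genes HO3 and HO4 had at most 9 and 2 counts. PORA, a protochlorophyllide reductase gene known from etiolated seedlings, had at most 1 count in any library, so nothing can be read from it. HO3 has 3 transcripts in the files and PORA has 2. How reads were divided among transcripts may bear on both as on FLU, which was not tested.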
